A study of Schizosaccharomyces pombe with 49 samples.

Results

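The mug and meu genes of fission yeast, Schizosaccharomyces pombe, carry names given for higher RNA in meiosis than in growth, mug for meiotically upregulated gene and meu for meiotic expression upregulated. Members were taken by symbol alone, as every gene called mug or meu with a number. Of 115 such symbols, 9 were set apart (mug4, mug8, mug9, mug10, mug20, meu10, meu13, meu14 and meu17), which left 106 of the 7015 features counted in all libraries. These are 86 mug and 20 meu genes, 101 of them protein coding and 5 annotated as long non-coding RNAs (meu3, meu11, meu16, meu19 and meu20). For most of the coding members the annotation names no function. Among those it does name are an alpha-amylase (meu7), an adducin (mug14), RNA-binding proteins (mug24 and mug28), ubiquitin ligases (meu34 and mug30), a BAR adaptor (mug137) and spore wall assembly proteins (mug56 and mug65).

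RNA sequencing counts of 46 libraries were used. A course of 31 libraries followed pat1-as2 diploids at 26C, with 11 libraries of wild type for the RNA elimination genes, 10 of a red1 deletion and 10 of a pir1 deletion. Each strain was sampled in vegetative growth in YEA medium, after 4 h in EMM-N (medium without nitrogen), and each hour from 1 to 8 h in EMM with 25 µM 1-NM-PP1, an inhibitor of the analog-sensitive Pat1 kinase. Each strain has 1 library at each time, but wild type has 2 in vegetative growth. A further 8 libraries are of h90 cells, which switch mating type, in YEA at 30C. They comprise wild type, the tor2-ts6 mutant, and 3 double mutants in which ubi4, cul4 or ddb1 was deleted in the tor2-ts6 background, all 3 with pir1 and with pir1 deleted too. Another 4 libraries are of h90 cells expressing GFP-Pir1 (1 library in YEA at 30C and 1 in EMM at 18C) or its variants SD and SA (1 each in EMM at 18C). The last 3 are of mat1Msmt0 cells at 29C, wild type and pir1 deletion in EMM and pir1 deletion in YEA. For tor2-ts6 and pir1 deletion mat1Msmt0 cells in YEA at 30C, the authors' deposited comparison tables were used.

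In growing fission yeast the TORC1 kinase Tor2 and the Pat1 kinase hold back sexual differentiation. Nitrogen starvation lowers Tor2 activity and raises the transcription factor Ste11, and loss of Pat1 activity lets the RNA-binding protein Mei2 start meiosis. Later in meiosis the forkhead factor Mei4 binds the FLEX element, whose core is GTAAACA, and turns on genes of the meiotic divisions and spore formation. Meiotic transcripts made by chance in growing cells are destroyed. The YTH protein Mmi1 binds hexamers of the form TNAAAC in them and hands them to the nuclear exosome through a complex with Red1 and Pir1 (also called Iss10). Bulk RNA from a population was measured, so fewer cells of a kind and less RNA per cell cannot be told apart.

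Reads assigned to genes, in units of 1000000, ran from 8.96 to 56.5 per library in the count column that ignores strand, which served for the course because its strand columns were less separated, and from 10.2 to 41.8 in the stranded column used for the other 15 libraries. The column without strand drops reads where features of opposite strands overlap, and 13.2 to 30.4% of reads were lost as ambiguous. Among the members described hour by hour, meu7, mug30, mug33, mug37, mug45 and mug146 have an annotated partner on the other strand, and their stranded highest levels are given where they are first described. The share of reads on the wrong strand was judged at features with at least 100 reads whose strand counts add up to the count without strand. It was 9.1 to 11.3% in 10 wild-type course libraries and 9.18 to 10.7% in the red1 deletion. In the pir1 deletion it was 0.651 to 1.75%, and in the other wild-type vegetative library 0.623%. The pir1 deletion course thus differs from the wild-type course in a library property as well as in the strain, and these cannot be told apart. In the course the deleted genes matched their labels. In CPM (reads of a gene per 1000000 reads of all genes), iss10, which encodes Pir1, was at 1.01 to 4.37 in the pir1 deletion course and at 25.4 to 86.2 in wild type, and red1 stood at 2.88 to 18.8 CPM in its deletion and at 67.3 to 214 in wild type. In the tor2-ts6 strains iss10 had 45 reads without strand in the pir1 deletion against 752 with the ubi4 deletion, and 88 against 973 with ddb1. With cul4 the pir1 deletion library still held 219 reads of iss10 against 673, the least separated pair. In mat1Msmt0 cells in EMM it had 43 against 1975.

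Most members that could be tested rose in meiosis, as their names say. Against vegetative growth, over the 31 libraries of all 3 strains, 72 of 81 members tested rose at 4 to 6 h and 3 fell (edgeR quasi-likelihood, adjusted p under 0.05, as for every tested value here), with a median log2 change of 2.89. Over all 5687 features tested 31.8% rose and 31.4% fell. At 1 to 3 h, 67 rose and 2 fell (27.7% and 26.6% of all features), with a median of 2.01. At 7 to 8 h, 60 rose and 3 fell (27.7% and 27.7% of all features), with a median of 2.00. After starvation alone 29 rose and 2 fell (20.5% and 19.3% of all features), with a median of 1.25. The remaining 25 of the 106 had too few reads in this column to be tested. In the stranded column, where 104 were tested, 95 rose at 4 to 6 h and 2 fell. The shares over all features above are of the column without strand.

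The members with the largest rises at 4 to 6 h were the non-coding RNA meu3 (log2 9.07 ± 1.43 SE, adjusted p = 4.58e-06), the alpha-amylase gene meu7 (8.85 ± 1.55, adjusted p = 2e-05), mug146 (8.37 ± 1.61, adjusted p = 6.73e-05) and meu19 (8.35 ± 1.20, adjusted p = 1.29e-06). Under starvation the largest rise was that of the adducin gene mug14 (7.04 ± 0.70, adjusted p = 5.55e-09). Against the name of the group, mug115 fell by 1.43 ± 0.19 on the log2 scale at 4 to 6 h (adjusted p = 3.37e-07) and mug64, annotated as a BAR domain protein, by 1.38 ± 0.16 (adjusted p = 5.62e-08). In the same phase mug5 fell by 1.27 ± 0.41 (adjusted p = 0.00898), but its change was 0.18 in the stranded column. Both mug115 and mug64 fell in every phase, and mug151, annotated as a transcriptional regulator of the HCNGP type, fell by 0.50 ± 0.16 at 7 to 8 h (adjusted p = 0.00927).

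In the wild-type course the members together took 0.206% of gene reads in vegetative growth, 0.827% after starvation, 1.05% at 1 h, 4.34% at 3 h and a highest 8% at 5 h, and 1.52% at 8 h. Of that 8%, meu3, meu7 and meu19 made up 4.75%. In the red1 deletion the share was 0.36% in vegetative growth, reached its highest, 5.84%, at 6 h and was still 4.92% at 8 h. In the pir1 deletion it was 0.199% in vegetative growth, already 2.2% after starvation, highest at 3 h with 4.93% and 1.53% at 8 h. The pooled level of the members thus came to its highest point later than wild type without Red1 and earlier without Pir1.

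**Figure D1:**
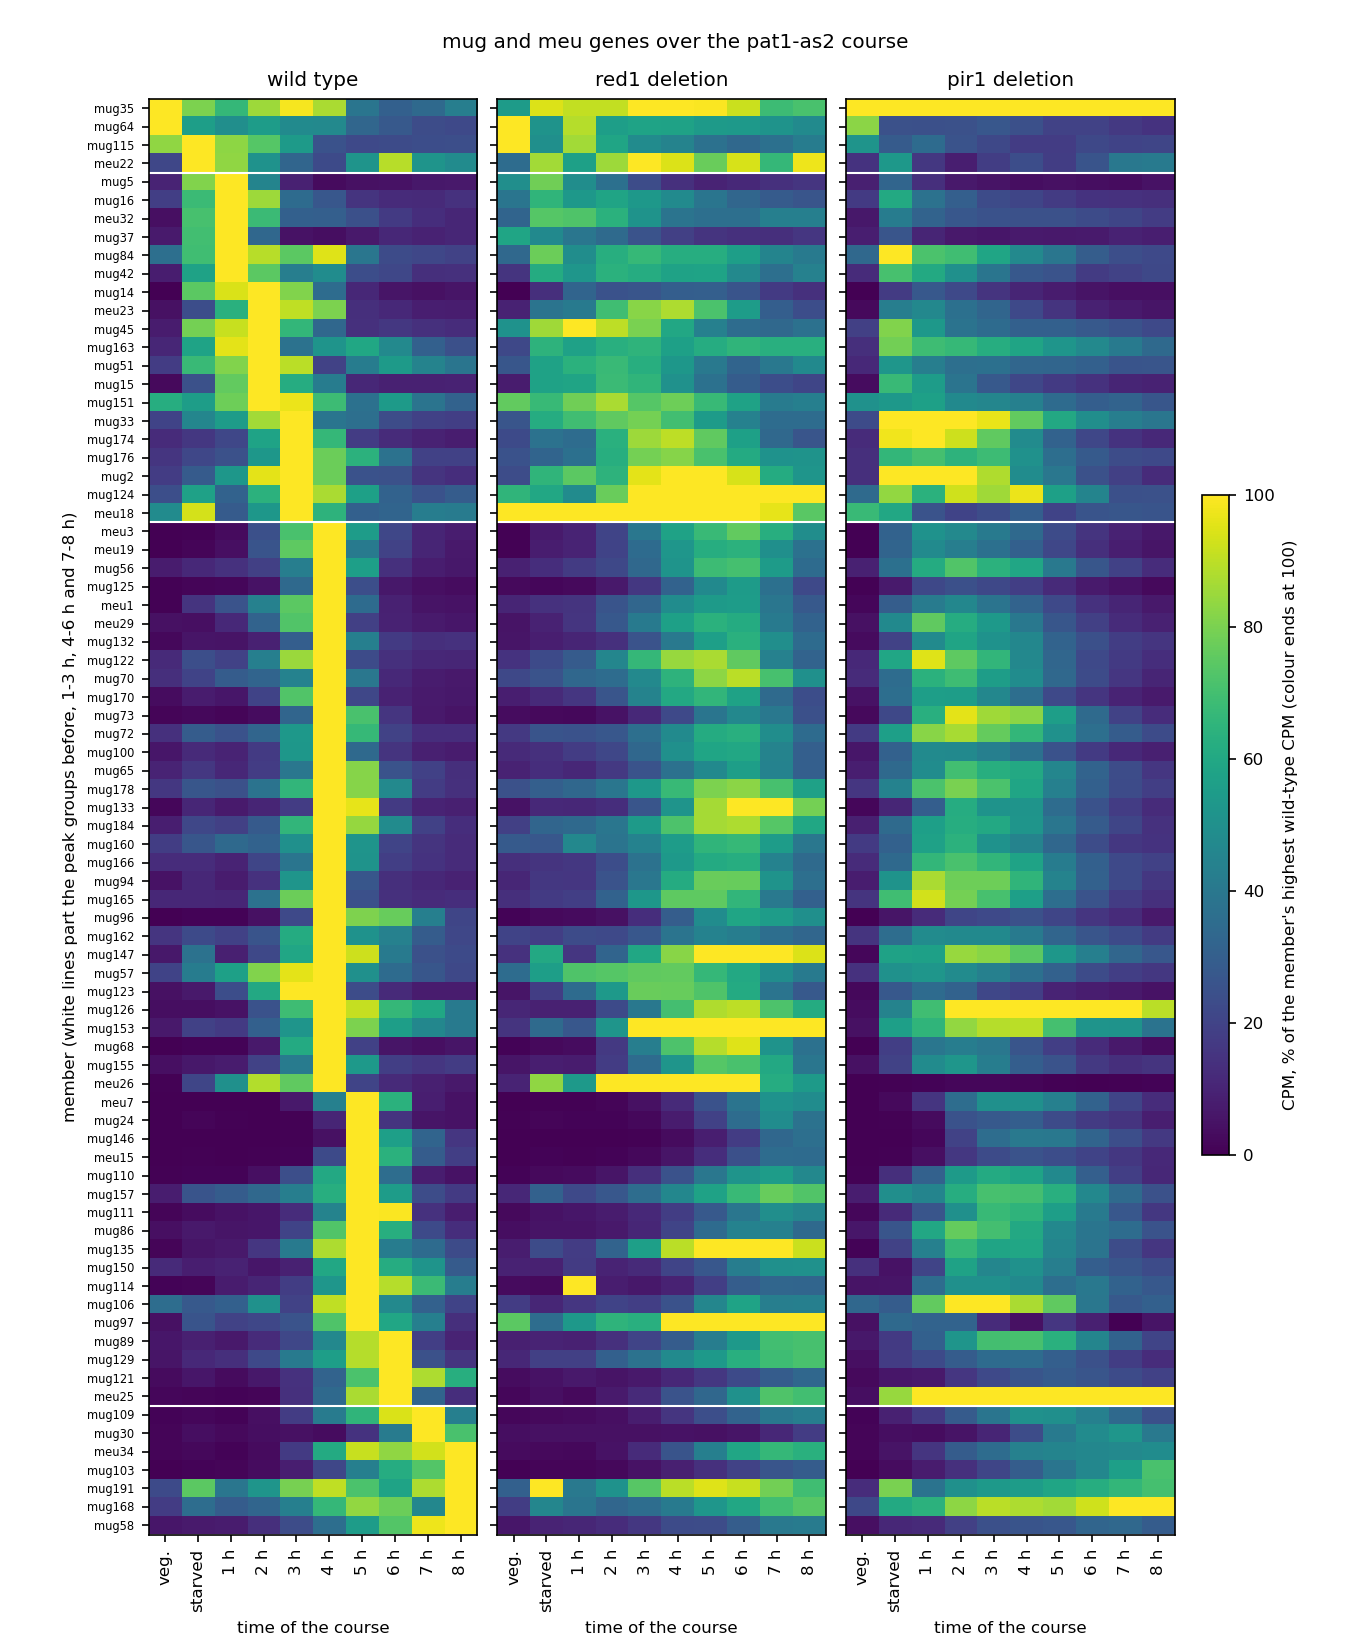
Levels of the 78 placed members (rows) at each time (columns) in the wild type, red1 deletion and pir1 deletion courses, as a percent of each member's highest wild-type CPM, with 1 library per cell except the wild-type vegetative mean of 2. White lines part the groups of 4, 19, 48 and 7 members by hour of highest wild-type CPM. Bright cells lie to the right in the red1 deletion and to the left in the pir1 deletion for most members that peak at 4 to 6 h.

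Each member was placed by the time of its highest CPM in the wild-type course. Those values are a description, since they define the groups. A peak at 4, 5 or 6 h was the most common, with 48 members (31, 13 and 4), followed by 19 at 1, 2 or 3 h (6, 7 and 6), 7 at 7 or 8 h (2 and 5) and 4 before induction (mug35 and mug64 in vegetative growth, mug115 and meu22 after starvation). The other 28 stayed under 20 reads in every wild-type library, and 26 of these overlap an annotated feature on the opposite strand, as do 39 of the 78 placed. For 58 of the 78 the second highest time was within 1.5-fold of the highest, so neighbouring hours are often not separated. Placement by the stranded column gave 69 of the 78 the same group, and TMM scaling (trimmed mean of M values) gave 72.

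The groups differed in height. The median highest CPM was 25.4 for members peaking before induction, 141 for those peaking at 1 to 3 h, 512 for those at 4 to 6 h and 617 for those at 7 to 8 h. Over the vegetative mean (prior of 0.5 CPM) the median rise was 8.06-fold for the 1 to 3 h group, 18.4-fold for the 4 to 6 h group and 65.4-fold for the 7 to 8 h group. A rise of at least 10-fold was seen in 6 of 19, 36 of 48 and 5 of 7. Members that peaked before induction had no such rise (0 of 4).

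**Figure D2:**
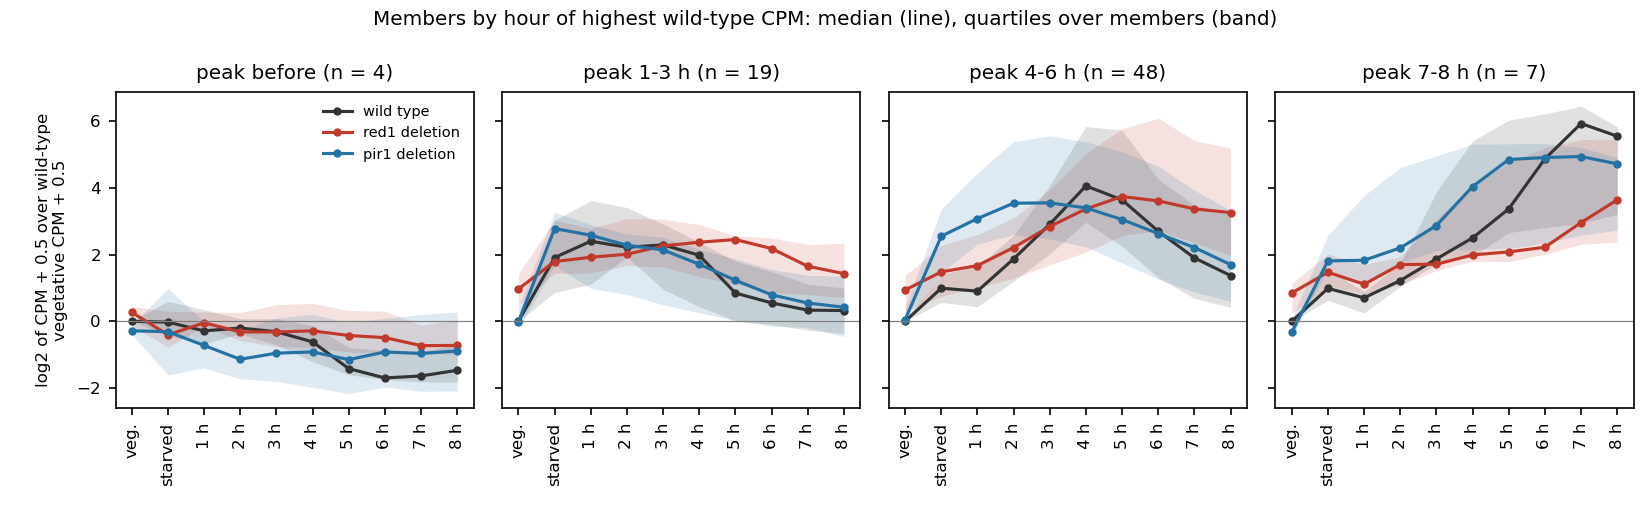
Median (line) and quartiles over members (band) of the log2 ratio of CPM + 0.5 to the wild-type vegetative value + 0.5, by time, for the 4 peak groups in wild type, red1 deletion and pir1 deletion. In the 4 to 6 h group the wild-type median was highest at 4 h (4.06), the red1 deletion median at 5 h (3.74, and 3.26 at 8 h against 1.37 in wild type) and the pir1 deletion median at 3 h (3.55, and 2.55 after starvation against 0.99).

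Among members that peak early, mug14 was the most abundant. Its wild-type CPM was 18.9 and 3.13 in the 2 vegetative libraries, 3260 after starvation, 4100, 4350, 3520 and 1530 at 1 to 4 h, and 490, 248, 203 and 240 at 5 to 8 h. In the red1 deletion it was 12.5 in vegetative growth, 584 after starvation and 1090 to 1400 from 1 to 6 h. In the pir1 deletion it was 4.56, then 754 after starvation, at most 1200 at 1 h, and 183 at 8 h. Both deletions therefore stayed below wild type from starvation to 3 h. The next members of this group by height were meu23 (568 CPM at 2 h), mug33 (357 at 3 h, stranded 207) and mug45 (316 at 2 h, stranded 277). The levels of mug5 (143 CPM at 1 h) and mug37 (135 CPM at 1 h, stranded 283) were already down to 13.4 and 6.35 CPM at 3 h (stranded 37.7 for mug37).

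Of the 78 members placed in the column without strand, the 4 with the highest CPM (meu7, meu3, meu19 and mug24) peak at 4 to 6 h. The wild-type CPM of meu7 was 19 and 19.4 in vegetative growth, 34.5 after starvation, 40.3, 95.9 and 2140 at 1 to 3 h, 13600, 31300 and 20000 at 4 to 6 h, and 2630 and 1490 at 7 and 8 h. Its highest stranded level was 51000, also at 5 h. Per kilobase of transcript, in the column without strand, meu7 reached 13500 CPM. The non-coding meu3 (22900) and meu19 (22000), whose highest CPM were 17100 and 16500 at 4 h, stood above it in that column. That column drops reads where meu7 overlaps its partner on the other strand, while meu3 and meu19 have no such partner. The order per kilobase therefore holds for that column only. The RNAs meu3 and meu19, on chromosome III, are 86.5% identical over 768 aligned bases, so reads can be split between them and their separate levels are uncertain. The RNA-binding protein gene mug24 had a narrow peak, with 33 CPM at 3 h, 647 at 4 h, 6190 at 5 h and 937 at 6 h. Close to it in timing were mug146, with 148, 3210 and 1810 CPM at 4, 5 and 6 h (stranded 2190 at 5 h), and meu15, with 608, 2690 and 1720.

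Of the 7 members that peak at 7 or 8 h, the ubiquitin ligase gene meu34 had the highest level, 2920 CPM at 8 h, though it already stood at 2680 at 5 h. The Rab GTPase-binding protein gene mug109 reached 2290 CPM at 7 h from 25.5 and 15.5 in vegetative growth. For mug103, of no annotated function, each time was higher than the one before, from 6.09 and 1.42 CPM in vegetative growth through 391 at 4 h to 1820 at 8 h. The ubiquitin ligase gene mug30 came on last, with 19.6 CPM at 4 h, 90.4 at 5 h, 257 at 6 h, 617 at 7 h (stranded 1930) and 441 at 8 h. The others were mug58 (glycerate kinase), mug168 and mug191 (alpha-1,6-mannanase).

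The 28 members without a place in the column that ignores strand were not silent in the stranded column, which placed 26 of them, 1 at 1 to 3 h, 21 at 4 to 6 h and 4 at 7 to 8 h. The pleckstrin homology protein gene meu6 had the highest level of these 26, 34100 CPM at 8 h (15000 per kilobase), from 27.3 and 2.84 in vegetative growth. Next were meu31 (6010 CPM at 6 h), mug113 (2970 at 6 h), meu27 (2770 at 5 h) and the BAR adaptor gene mug137 (2750 at 4 h). The AMP-binding enzyme gene mug62 (1470), mug131 (1450), the RNA-binding protein gene mug28 (1290) and the kinase gene mug27 (1170) all peaked at 4 h. For meu16 and mug177 the reads on their own strand made up 1.6% and 4.56% of the reads of both strands, less than the wrong-strand share of these libraries. The non-coding meu11 and meu20 were listed at 0 throughout, and every 31-base word of meu11 also occurs in another annotated non-coding RNA that overlaps it on the same strand.

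Promoters were read from RefSeq (assembly ASM294v3) as 250 bases before to 50 after each annotated start, for all 106 members and 5112 coding genes. The FLEX core GTAAACA, on either strand, was found in 54 of 106 member promoters (50.9%) and in 844 of 5112 coding gene promoters (16.5%). By peak group it was in 8 of 19 (42.1%) at 1 to 3 h, 24 of 48 (50%) at 4 to 6 h, 3 of 7 (42.9%) at 7 to 8 h, 2 of 4 before induction and 17 of 28 (60.7%) not placed. The other motifs searched, on both strands, were no more common than in coding genes at large or rested on few promoters. The TR box core TTCTTTGTT of Ste11 was in 0 of 106 (2% of coding genes), the CRE core TGACGT of Atf1 in 5 (4.72% against 5.91%) and the MCB ACGCGT of the factor MBF in 4 (3.77% against 3.25%). A match only describes these letters, and since the authors' genome build is unknown here no coordinates are given.

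The windows below show the motif, in capitals, with 25 bases on each side as far as the window allows, read 5′ to 3′ along the gene, for 7 members that the later results turn on. TGTTTAC is GTAAACA on the other strand. The first base of the motif shown lies 77 bases before the start of meu3, 75 before meu7, 210 before mug24, 55 before mug110, 185 before mug137 and 61 before meu6. The annotated transcripts of meu7 (2325 bases) and mug137 (1263 bases) are no longer than their coding sequences. For these genes the distance is therefore to the coding start, and it cannot be set beside the others. For meu3 and meu7 a 2nd copy, not shown, lies 134 and 154 bases before the start, and for mug109 both copies, at 98 and 74 bases, are shown.
meu3: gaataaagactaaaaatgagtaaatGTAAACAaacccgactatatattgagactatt
meu7: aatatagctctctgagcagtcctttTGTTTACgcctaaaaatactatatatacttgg
mug24: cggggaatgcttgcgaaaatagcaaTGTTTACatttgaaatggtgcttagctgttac
mug110: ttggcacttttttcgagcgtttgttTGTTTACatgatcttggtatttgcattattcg
mug137: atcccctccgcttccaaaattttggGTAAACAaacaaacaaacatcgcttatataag
meu6: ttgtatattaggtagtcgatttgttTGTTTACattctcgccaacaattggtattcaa
mug109: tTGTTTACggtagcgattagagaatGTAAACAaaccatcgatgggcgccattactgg

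Without Red1, members that peak at 4 to 6 h in wild type came to their highest level later. In the red1 deletion libraries, which played no part in the grouping, 43 of these 48 members had their highest CPM at a later time (89.6%), 2 at the same and 3 at an earlier one, with a median of 2 steps. Of the 31 that peak at 4 h in wild type, 21 peaked at 6 h. Among all 1258 features that peak at 4 to 6 h in wild type, 62.2% were later, with a median of 1 step. The 1 to 3 h group had no common direction (8 earlier, 4 same, 7 later). For the 7 to 8 h group the counts were 2, 3 and 2. The course ended at 8 h, so the 5 members that peak at 8 h in wild type could not be later. The 2 that peak at 7 h in wild type both peaked at 8 h. The direction of this group can therefore not be judged. With stranded counts 65 of 69 members peaking at 4 to 6 h were later, against 62.5% of 1179 features that peak then.

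Without Pir1 the shift was to earlier times. Of 46 members of the 4 to 6 h group that could be placed in the pir1 deletion, 43 peaked earlier (93.5%) and 3 at the same time, with a median of 2 steps. Of 30 that peak at 4 h in wild type, 16 peaked at 2 h and 11 at 1 h. In the 1 to 3 h group 18 of 19 were earlier, and in the 7 to 8 h group 3 of 7, with the other 4 at the same time. Features at large also shifted, since 86.8% of the 1208 that peak at 4 to 6 h in wild type were earlier. With stranded counts 67 of 69 members peaking at 4 to 6 h were earlier, against 89.5% of 1135 features that peak then. The profile of 4961 other genes was set against each wild-type time as well. In the red1 deletion it was nearest to the same wild-type time from vegetative growth to 2 h, and from 3 to 8 h it was nearest to a wild-type time 1 to 3 steps earlier. In the pir1 deletion it was nearest to the same time in vegetative growth, at 6 h and at 8 h, and otherwise to a wild-type time 1 to 3 steps later.

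**Figure D3:**
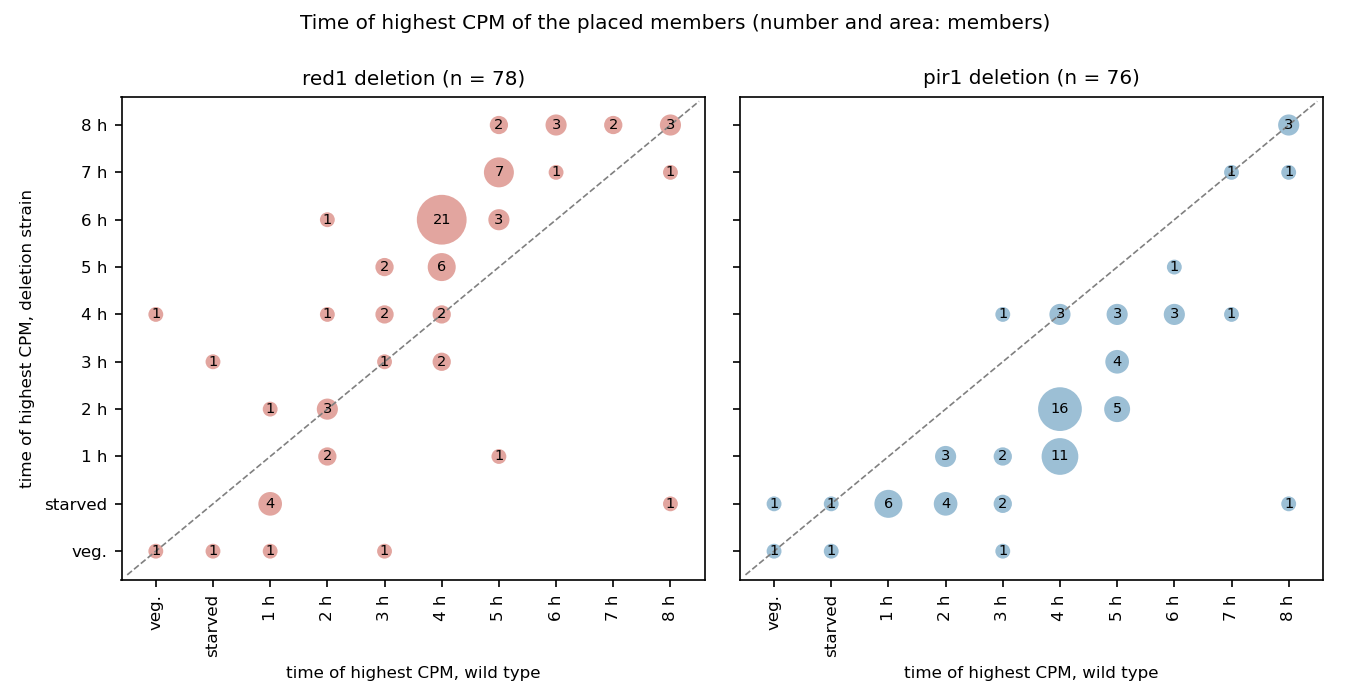
Time of highest CPM of the placed members in the red1 deletion (78 members) and pir1 deletion (76 members), on the vertical axis, against that in wild type, on the horizontal axis, both from vegetative growth to 8 h. Each circle's area and number give the members at that pair of times, and the line marks equal times. Circles for members that peak at 4 h in wild type lie mostly at 6 h (21 of 31) without Red1 and at 2 h (16 of 30) or 1 h (11 of 30) without Pir1.

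Peaks within the 8 h sampled were also lower in the deletions for many members. The highest CPM in the red1 deletion was at most 0.5 times that in wild type (a log2 ratio of -1 or less) for 13 of 78 members and at least 2 times for 1, with a median log2 ratio of -0.46, against -0.11 over 5548 features (6.71% and 4.67% past those limits). In the 7 to 8 h group the median was -1.22 with 4 of 7 members at or past -1, against -0.39 and 23.4% of 474 features that also peak at 7 to 8 h. In the 4 to 6 h group it was -0.54 with 8 of 48, against -0.30 and 8.29% of 1279 features. The course ended at 8 h, and the 4 late members (mug30, mug58, mug103 and mug109) had their highest red1 deletion CPM at that last time. So did mug146 of the 4 to 6 h group, among others. Whether such members went higher after 8 h was not measured. In the pir1 deletion the median was -0.69 with 21 of 78 at -1 or less, against -0.44 and 19.2% over all features.

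Single members show these shifts hour by hour. In the red1 deletion meu7 was at 82 CPM in vegetative growth, 231 after starvation, 1360 at 3 h, 7840 at 5 h and 16000 at its highest, 7 h, with 15200 at 8 h, when wild type stood at 1490. In the pir1 deletion meu7 was at 33 CPM in vegetative growth, 814 after starvation, 4880 at 1 h, 15700 at 3 and 4 h and 3920 at 8 h. At 2 h it stood at 11200 without Pir1, 417 without Red1 and 95.9 in wild type. The same order was seen for mug24, with 1560 CPM at 2 h without Pir1, 53.8 without Red1 and 20 in wild type, and its highest level without Red1 was 3010 at 7 h. For the non-coding meu3 the starved pir1 deletion library already held 5370 CPM, against 1230 in the red1 deletion and 130 in wild type. Its highest levels were 17100 in wild type at 4 h, 13000 in the red1 deletion at 6 h and 8750 in the pir1 deletion at 1 h.

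The differences were then tested by phase in a fit over the 31 libraries, where the hours of a phase stand in for replicates and the Red1 and Pir1 contrasts share the wild-type libraries. In this fit 82 of the 106 members could be tested. Before induction, loss of Red1 raised 6 of them and lowered 0 (4.51% and 3.78% of all 5721 features, and 15 members had an unadjusted p under 0.05). These were meu3 (4.24 ± 1.06, adjusted p = 0.0193), meu1 (2.52 ± 0.73, adjusted p = 0.0412), meu26 (2.31 ± 0.57, adjusted p = 0.0182), mug135 (2.06 ± 0.49, adjusted p = 0.0152), meu32 (1.49 ± 0.40, adjusted p = 0.0287) and mug45 (1.37 ± 0.34, adjusted p = 0.0193). In vegetative growth meu1 stood at 112 CPM without Red1 and at 7.36 and 3.66 in wild type, and mug45 at 161 against 32.8 and 15.9. After starvation meu1 and mug45 stood close to wild type (158 against 166 and 271 against 250 CPM), as did meu32 (104 against 99.9). By contrast meu3 (1230 against 130 CPM), mug135 (26.1 against 6.25) and meu26 (7.07 against 1.78) were above wild type after starvation as well. Without the vegetative time 0 passed, with log2 differences of 3.20 for meu3, 2.01 for mug135 and 1.93 for meu26, and without the 2nd wild-type vegetative library 2 passed. Both mug135 and meu26 have a partner on the other strand, and with stranded counts meu26 passed (3.05, adjusted p = 0.022) and mug135 did not (adjusted p = 0.0888).

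Loss of Pir1 before induction gave 1 higher and 1 lower member (1.64% and 2.2% of all features), with an unadjusted p under 0.05 for 35 of 82. Neither call, meu25 higher and meu26 lower, was made in the stranded column, where meu26 changed by 1.41 in place of -4.32. There mug86 and mug96 rose and 0 fell, with an unadjusted p under 0.05 for 51 of 104. The starved and vegetative libraries differed in this contrast. Of the members named so far, meu3 differed after starvation, as given above. In vegetative growth it stood at 4.95 CPM without Pir1, against 5.75 and 0.472 in the 1st and 2nd wild-type libraries. The wrong-strand share of the pir1 deletion library (0.651%) was near that of the 2nd (0.623%) and not of the 1st (9.58%). The 0.472 CPM rests on 8 reads, so the vegetative difference of meu3 depends on the library chosen. Leaving out the vegetative time raised the count to 17 higher, and leaving out the 2nd wild-type vegetative library raised it to 12.

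At 1 to 3 h loss of Red1 changed few members, 2 higher and 1 lower (6.28% and 6.69% of all features). The fall was that of mug14, by 1.96 ± 0.51 (adjusted p = 0.0172). The rises of mug62 and mug113 were absent in the stranded column, where mug62 changed by -0.09 and 0 members rose.

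Loss of Pir1 at 1 to 3 h gave the largest response, with 50 of 82 members higher and 11 lower (19% and 24.1% of all features) and a median of 1.41 against -0.07 over all features. The peak groups were formed on the wild-type libraries that are also the reference here, so a group tends to be low in a deletion at its own hours and high at others, and counts by group are set beside those of all features that peak at the same hours. Of the 4 to 6 h group 38 of 48 rose (79.2%, median 1.90), against 44.6% of 1276 such features (median 0.68). Of the 7 to 8 h group 6 of 7 rose (85.7%), against 24.5% of 473 features. Of the 1 to 3 h group 1 of 19 rose and 7 fell (5.26% and 36.8%), near the 3.88% and 42.5% of 1728 features that peak then. Among the largest rises were meu7 (5.78 ± 0.91, adjusted p = 0.000161), mug146 (5.75 ± 0.81, adjusted p = 7.29e-05), mug24 (5.49 ± 0.88, adjusted p = 0.000175), meu15 (4.74 ± 0.57, adjusted p = 2.36e-05) and the transporter gene mug73 (4.28 ± 0.85, adjusted p = 0.000863). The acetate transporter gene mug86 rose by 3.28 ± 0.40 (adjusted p = 2.36e-05) and meu34 by 3.02 ± 0.46 (adjusted p = 0.000132). Those that fell include mug5, by 1.96 ± 0.43 (adjusted p = 0.00164), mug14, by 1.80 ± 0.50 (adjusted p = 0.0089), and mug37, by 1.74 ± 0.64 (adjusted p = 0.0368), all early members whose wild-type level is highest at 1 or 2 h. In the stranded column 70 of 104 rose and 10 fell, with 18 of 26 members without a place among the rises, led by meu27 (6.04 ± 0.82, adjusted p = 6.57e-05), mug98 (5.09 ± 0.61, adjusted p = 3.17e-05) and meu31 (4.53 ± 0.90, adjusted p = 0.000849). The stranded count of the 1 to 3 h group was 6 higher and 6 lower. The shares over all features above are of the column without strand, so these stranded counts have no share beside them. Leaving out 2 h gave 31 higher and 3 lower, and leaving out 1 h or 3 h gave 7 lower each.

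At 4 to 6 h loss of Red1 left 18 members lower and 7 higher (14.6% and 12.5% of all features). In the 7 to 8 h group 6 of 7 fell (85.7%, median -1.54), against 32.8% of the features that peak at those hours (median -0.48). In the 4 to 6 h group 12 of 48 fell (25%), against 30.7% of such features. The strongest were mug121 (-2.42 ± 0.35, adjusted p = 0.000131), mug111 (-1.95 ± 0.34, adjusted p = 0.000514), mug103 (-1.98 ± 0.42, adjusted p = 0.0024) and mug30 (-1.90 ± 0.43, adjusted p = 0.00355). Part of the transcript of mug121 is shared with an overlapping non-coding RNA on the same strand, so its level is uncertain. The 7 higher calls depended on the column and the hours, with 0 in the stranded column, 21 without 4 h and 0 without 5 h or 6 h. Without 5 h the count of lower members was 6.

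Loss of Pir1 at 4 to 6 h lowered 12 members and raised 4 (15.4% and 9.89% of all features), with 9 of the 48 in the 4 to 6 h group lower (18.8%), against 22.6% of the features that peak at those hours. The phospholipid flippase subunit gene mug89 was not among them, but mug129 fell by 1.42 ± 0.26 (adjusted p = 0.00151) and mug96 by 2.12 ± 0.51 (adjusted p = 0.00685). In contrast mug30 rose by 1.32 ± 0.41 (adjusted p = 0.0252), with 144, 253 and 298 CPM at 4, 5 and 6 h against 19.6, 90.4 and 257 in wild type.

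At 7 to 8 h, loss of Red1 raised 20 members and lowered 5 (10.7% and 13.8% of all features). Of the 4 to 6 h group 15 rose (31.2%, median 1.49) and 1 fell, against 18.6% and 10.6% of the features that peak at those hours (median 0.38). Of the 7 to 8 h group 4 of 7 fell (57.1%), a share near the 56.4% of the features that peak then. Members still high without Red1 were mug133 (2.79 ± 0.61, adjusted p = 0.00543), mug70 (2.49 ± 0.56, adjusted p = 0.00595), mug110 (2.46 ± 0.78, adjusted p = 0.0308) and mug89 (1.83 ± 0.33, adjusted p = 0.00145). For mug89 the red1 deletion held 954 and 969 CPM at 7 and 8 h against 255 and 139 in wild type. Among the 4 was mug30, which fell by 3.10 ± 0.52 (adjusted p = 0.000826), with 67.8 and 109 CPM against 617 and 441, and mug103 by 2.15 ± 0.52 (adjusted p = 0.00872), with 480 and 533 CPM against 1330 and 1820. For both genes the red1 deletion values lay below the wild-type values. With 2 hours in the phase, leaving out 7 h or 8 h cut the higher members to 1 and 0 and the lower ones to 0 and 1, while leaving out 4 h gave 31 higher.

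Loss of Pir1 at 7 to 8 h changed 3 members each way (5.96% higher and 7.99% lower of all features). The glycerate kinase gene mug58 fell by 1.61 ± 0.30 (adjusted p = 0.0046), mug121 by 1.78 ± 0.42 (adjusted p = 0.0122), and mug168 rose by 1.12 ± 0.32 (adjusted p = 0.0291). The other calls, meu25 and mug35 higher and meu26 lower, were turned or lost in the stranded column, where meu26 changed by 0.36 and meu25 by -0.68.

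Averaged over the whole course these opposing phases partly cancelled. Loss of Red1 gave 8 members higher and 6 lower of 79 tested (14.2% and 18% of all 5524 features), with mug121 (-1.30 ± 0.34, adjusted p = 0.00575) and mug58 (-0.98 ± 0.24, adjusted p = 0.00336) among the lower. Loss of Pir1 gave 20 higher and 9 lower (17.7% and 24%), with mug126 (1.71 ± 0.35, adjusted p = 0.000467) and mug33 (1.00 ± 0.17, adjusted p = 6.3e-05) among the higher. Leaving out starvation, 1, 2 or 3 h cut the 20 to between 8 and 12. A change of the strain difference between phases passed the F test for 12 of 82 members without Red1 (8.69% of all features) and for 25 without Pir1 (7.81%).

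In growing cells most members did not respond to Pir1. The backgrounds compared were tor2-ts6 with ubi4, cul4 or ddb1 deleted, mat1Msmt0 cells in EMM and vegetative diploids. Over 11 libraries of 5 backgrounds, 3 of 74 members tested rose and 0 fell when Pir1 was absent (0.604% of 5130 features rose and 0.0195% fell, and 4 members had an unadjusted p under 0.05), with a median of 0.04 against -0.02 over all features. The 3 were meu1 (2.31 ± 0.16, adjusted p = 0.000834), mug45 (1.52 ± 0.14, adjusted p = 0.00345) and meu32 (1.33 ± 0.21, adjusted p = 0.0444). The same 3 rose in the 6 tor2-ts6 libraries alone, where 102 members could be tested in the stranded column and 0 fell (0.431% and 0% of 6261 features, and 14 members had an unadjusted p under 0.05): mug45 by 1.80 ± 0.09 (adjusted p = 0.0147), meu32 by 1.92 ± 0.14 (adjusted p = 0.0215) and meu1 by 1.95 ± 0.14 (adjusted p = 0.0215). Without the ddb1 pair 0 passed there.

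In the stranded column meu1 stood at 17.5, 27 and 20.1 CPM in the ubi4, cul4 and ddb1 deletions of tor2-ts6 and at 52.8, 101 and 96 without Pir1, and at 17.8 and 53.1 in mat1Msmt0 cells in EMM. The values of mug45 were 25.9, 31 and 40.1 with Pir1 and 84.1, 118 and 130 without it, and 22.4 and 48.6 in mat1Msmt0 cells. The lowest of the 3, meu32, stood at 3.98, 10.9 and 8.84 with Pir1 and at 11.6, 42.8 and 36.3 without it, and at 3.57 and 7.67 in mat1Msmt0 cells. A further low member, mug128, had values of 1.12, 1.77 and 1.19 CPM against 2.83, 5.68 and 5.05, without passing (1.75 on the log2 scale, adjusted p = 0.109).

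**Figure D4:**
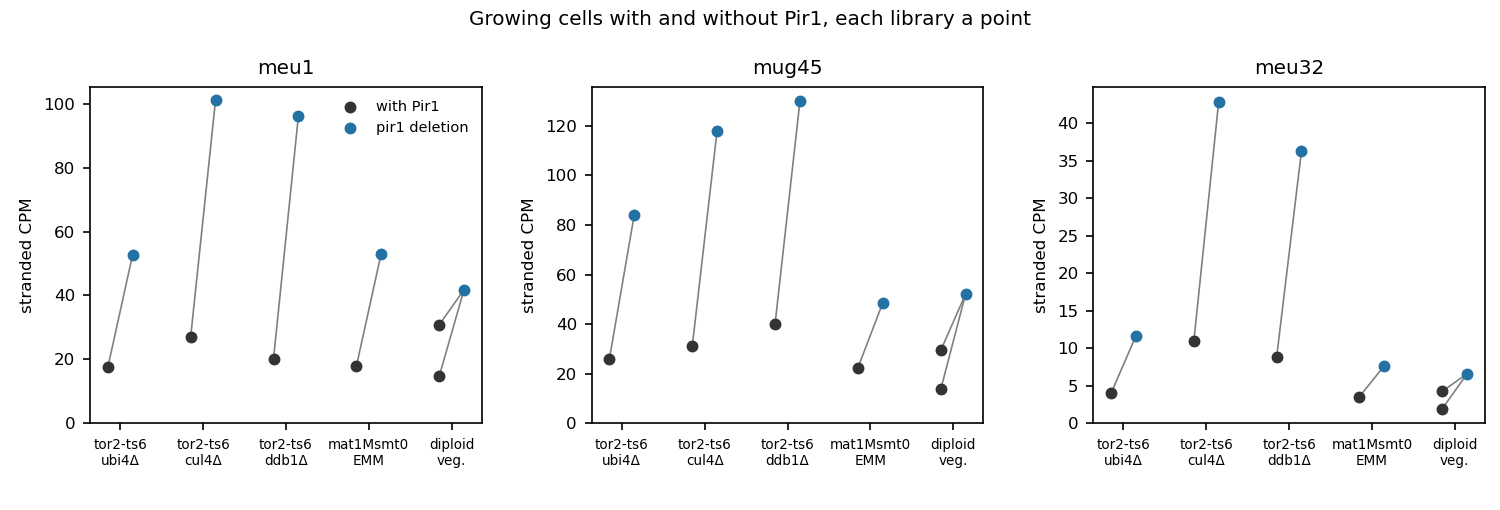
Stranded CPM of members in growing cells with Pir1 (dark points) and with the pir1 deletion (blue points), each point 1 library, in 5 backgrounds, with a vertical axis from 0 for each gene. For meu1 the tor2-ts6 libraries rose from between 17.5 and 27 to between 52.8 and 101.

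Lists of other meiotic genes were compared in the same fit of 11 libraries. Of 10 tested Mmi1 targets 5 rose (median 1.53), of 7 recombination genes 4 (median 1.33), of 6 genes of middle meiosis 2 (median 0.27), of 8 spore wall genes 0 (median 0.14) and of 10 mating genes 1 (median 0.03). None of these fell. The 2 genes of middle meiosis that rose, mei4 and spo5, are also on the Mmi1 target list and are counted in both. The M cell markers (5 tested) and P cell markers (2 tested) gave 0 calls. The members' median of 0.04 lay near that of the mating list. The Mmi1 target list holds mug4, mug8, mug9 and mug10 and the recombination list holds meu13, all set apart from the members by the rule. In this fit mug9 (2.22), mug10 (2.17), mug8 (2.15) and meu13 (1.12) rose, and mug4 did not pass (0.99, adjusted p = 0.0607). The gap between the members and these 2 lists thus depends in part on which mug and meu genes were set apart.

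Hexamers TTAAAC and TCAAAC, forms of the Mmi1 element, were counted in transcripts from RefSeq. Members carried a median of 1 per transcript, or 0.877 per kilobase, against 1 and 0.723 in 5112 coding genes, and 5 or more were present in 4.72% of members and 6.32% of coding genes. By count per kilobase mug45, with 10, stood above 99.2% of coding genes, meu26, with 6, above 99.8%, and mug128, with 2, above 99.6%. The RNA-binding protein gene mug28 also had 6. The 2 other members that rose without Pir1 ranked lower by this count, with 2 in meu32 (above 87.6%) and 2 in meu1 (above 57.5%). With every TNAAAC form counted, meu32 had 6 (5 per kilobase) and meu1 had 5 (2.15 per kilobase). By that count mug45 had 7.16 per kilobase, meu26 5.8, mug28 4.92 and mug128 4.63. A 120-base stretch of coding sequence holding the most of them is shown for 5 members, with the hexamers in capitals. The stretch covers bases 1643 to 1762 of the 2460 coding bases of mug45, 304 to 423 of 1035 in meu26, 482 to 601 of 1830 in mug28, 34 to 153 of 432 in mug128 and 98 to 217 of 1179 in meu32.
mug45: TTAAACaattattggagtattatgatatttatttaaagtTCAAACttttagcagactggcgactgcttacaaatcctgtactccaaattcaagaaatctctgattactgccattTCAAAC
meu26: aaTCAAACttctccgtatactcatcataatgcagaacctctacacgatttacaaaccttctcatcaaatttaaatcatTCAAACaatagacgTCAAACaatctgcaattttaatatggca
mug28: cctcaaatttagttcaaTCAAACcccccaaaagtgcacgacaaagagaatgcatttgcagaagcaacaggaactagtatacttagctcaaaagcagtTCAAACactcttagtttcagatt
mug128: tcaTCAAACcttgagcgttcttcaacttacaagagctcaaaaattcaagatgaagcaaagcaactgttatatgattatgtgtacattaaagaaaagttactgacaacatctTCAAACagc
meu32: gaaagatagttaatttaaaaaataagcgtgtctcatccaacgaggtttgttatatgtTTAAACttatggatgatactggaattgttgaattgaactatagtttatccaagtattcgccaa

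The tor2-ts6 allele lowers the activity of the growth kinase Tor2, and here it was compared with wild type in h90 cells, 1 library each, with no replicate check. Among members with at least 50 reads in either library, 48 of 96 were at least 2-fold higher in tor2-ts6 and 4 at least 2-fold lower (16.2% and 15.7% of 5642 features), with a median log2 ratio of 1.00 against -0.06 over all features. Scaling to total gene reads moved the median of all features to 0.38. By peak group 7 of 18 members at 1 to 3 h were higher (median 0.86), 19 of 44 at 4 to 6 h (median 0.77), 5 of 7 at 7 to 8 h (median 1.30), 1 of 4 before induction, and 16 of 23 without a place (median 2.51). Several higher members, mostly without a place, met the minimum of 50 reads only in tor2-ts6. Examples are mug131 (5 reads in wild type and 184 in tor2-ts6), mug62 (17 and 419) and mug28 (9 and 267). Members under 50 reads in both libraries were left out, so these counts and medians hold only for members that passed.

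The early gene mug14 differed most, at 2.5 and 623 CPM in wild type and mutant (log2 ratio 7.45). It was followed by meu3, at 1.21 and 280 CPM (7.28), mug137, at 0.214 and 20.6 CPM (5.52), meu26 (5.48), meu19 (5.11) and meu7, at 6.14 and 290 CPM (5.09). The kinase gene mug27 (4.81) and the RNA-binding protein gene mug28 (4.49), at 0.642 and 23 CPM, were higher as well. The wild-type values of mug137, meu26 and mug27 rest on 3 reads each, so those ratios depend on the prior count of 2. Members lower in tor2-ts6 were mug114 (-2.47, from 62 to 11 reads), mug64 (-2.30, from 4481 to 1020 reads), meu16 (-1.95) and mug106 (-1.12). Genes of mating moved with these, 12 of 12 higher, as did 6 of 6 M cell and 2 of 2 P cell markers (medians 6.59 and 7.14), and their part in the members' difference was not tested.

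A deletion of ubi4 (polyubiquitin), cul4 or ddb1 (subunits of a ubiquitin ligase) on top of tor2-ts6 went with lower levels of many members, again in single pairs of libraries that share the tor2-ts6 library. At least 2-fold lower were 37 of 93 members with the ubi4 deletion (8.29% of all features), 23 of 98 with cul4 (6.32%) and 23 of 97 with ddb1 (2.37%), and at least 2-fold higher were 0, 6 and 3 (1.33%, 8.72% and 5.06% of all features). Some lower members met the read minimum only in tor2-ts6, such as mug131 (7 reads with the ubi4 deletion and 184 in tor2-ts6). For meu7 the 290 CPM of tor2-ts6 became 11.7, 74.6 and 14.9, and for mug14 the 623 CPM became 151, 80.4 and 218. The RNA-binding protein gene mug24 differed between the deletions, with 43.4 CPM in tor2-ts6, 15.8 with the ubi4 deletion, 222 with cul4 and 96.2 with ddb1. Mating genes were lower too, 10 of 12, 12 of 12 and 11 of 12, and their part was not tested.

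**Figure D5:**
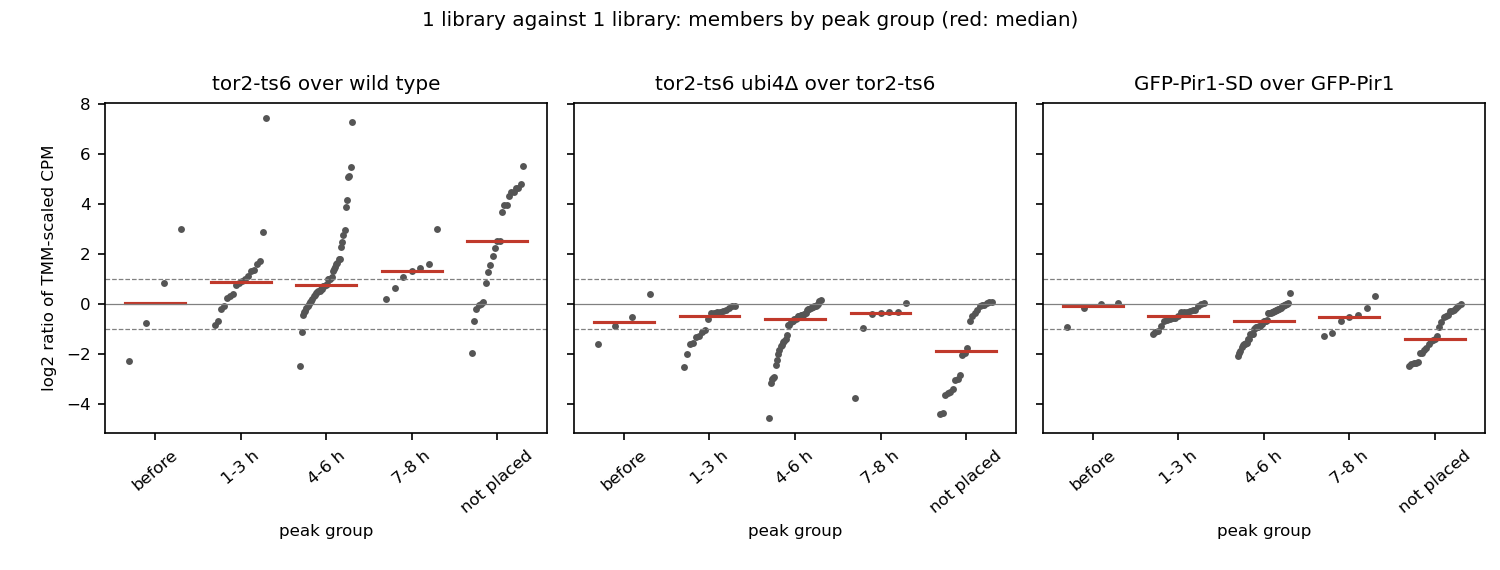
Log2 ratio of TMM-scaled CPM of each member (point) by peak group for tor2-ts6 over wild type, tor2-ts6 with the ubi4 deletion over tor2-ts6, and GFP-Pir1-SD over GFP-Pir1, with 1 library on each side. Red bars are medians over members and dashed lines mark a ratio of 1 and -1. In the 3 panels the members not placed have the medians farthest from 0, 2.51, -1.87 and -1.39.

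In h90 cells that express GFP-Pir1, in EMM at 18C, the SD variant went with lower levels. Of 102 members compared, 33 were at least 2-fold lower in the SD library and 0 higher (3.58% and 0.39% of 5899 features), with a median of -0.66. Members without a place were lower in 14 of 25, those of the 4 to 6 h group in 14 of 47, those of the 1 to 3 h group in 3 of 19 and those of the 7 to 8 h group in 2 of 7. Some lower members met the read minimum only in the GFP-Pir1 library, such as mug93 (47 reads with SD and 274 with GFP-Pir1) and mug112 (37 and 165). The largest differences were those of mug27 (-2.49, from 26.6 to 4.44 CPM), mug131 (-2.42), mug28 (-2.35, from 44.5 to 8.24 CPM) and meu26 (-2.09). With the SA variant 1 of 102 was lower and 0 higher (0.522% and 0.286% of 5934 features). That member was mug114, with 28 and 57 reads, and its CPM was also lower with SD. For meu7 the 3 libraries held 1300 CPM with GFP-Pir1, 408 with SD and 1200 with SA. Mating genes stayed within 2-fold in both comparisons (0 of 12 lower and 0 higher).

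In mat1Msmt0 cells in EMM the pir1 deletion library had 5 of 89 members at least 2-fold higher and 2 lower (0.927% and 0.652% of 5825 features). These included the 3 members above, meu1, mug45 (1.04) and meu32 (1.01), together with mug14 (1.38) and meu3 (1.36), whose CPM went from 14.1 to 38.7 and from 1.59 to 4.43. This pair is 1 of the 5 backgrounds in the fit that named those 3, so it is no separate evidence for them. The lower ones were mug153 (-1.09) and mug108 (-1.08). In the authors' deposited tables, for the same mating type in YEA at 30C, tor2-ts6 had 37 of 103 members higher and 5 lower at a q-value under 0.05 and a log2 fold of 1 or more (23.2% and 12.9% of 6495 features). The authors' deposited table of the pir1 deletion had 13 of 103 higher and 1 lower (6.68% and 1.29% of 6493). The library these were set against is not named in the files.

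Values in the authors' deposited table for tor2-ts6 were highest for mug147 (5.08), mug24 (3.30), mug14 (3.20) and meu3 (3.12). The lower members there were meu6 (-2.38), mug64 (-2.27), mug150 (-1.43), mug105 (-1.20) and mug28 (-1.08). In the h90 pair mug28 and meu6 were higher instead (4.49 and 3.69), while mug64 was lower there too (-2.30) and mug105 changed little (-0.19). In the authors' deposited table for the pir1 deletion the highest were mug33 (1.89), mug42 (1.82), mug24 (1.70), mug98 (1.66) and mug86 (1.63). The same table gave mug45 at 1.61, meu32 at 1.38 and meu1 at 1.09, and mug131 as the lower member (-1.40). In the fit of growing cells, where mug45, meu32 and meu1 passed, mug33 (0.09), mug42 (0.25), mug24 (0.22) and mug86 (-0.11) did not. For mug98 the pair in mat1Msmt0 cells in EMM gave -0.07.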

How the data were processed

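RNA was sequenced from fission yeast cultures with ScriptSeq v2 or Ultra II Directional kits on MiSeq or NextSeq 500 instruments, per the labels' protocols, which do not tie kits to samples. Trimmomatic and STAR are named in the submitters' processing notes, without versions, and neither source names a genome build or annotation. The deposited files hold raw read counts per gene, without strand and for each strand, in 46 libraries. For 2 further samples the authors deposited tables of log2 fold changes and q-values, per the file headers, and 1 sample is not analysed here. Another 4 columns of per-sample values there match no sample and were not used.

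Locus tags were matched to RefSeq names. Levels are CPM, reads per 1000000 gene reads. The column without strand was used for the course and the fit of 11 libraries, and the stranded column, in which reads of overlapping opposite genes are kept apart, elsewhere. Tests used edgeR 4.0.16 (R 4.3.3, limma 3.58.1): TMM scaling, filterByExpr, quasi-likelihood F tests and Benjamini-Hochberg adjustment over all features tested, with a threshold of 0.05. Fits blocked on time (course) or strain background (growing cells). Single pairs of libraries have log2 ratios of TMM-scaled CPM with a prior count of 2, a minimum of 50 reads in either library and no test. Fits were tested on simulated data with known changes.

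With 1 library per strain and time, hours stand in for replicates, and nothing says that libraries came from separate cultures, so p-values measure only the spread between these libraries. Total reads set the counting precision, and PCR duplicates were not told apart. Alternatives were DESeq2 1.42.0, no filter on low counts, the other count column, total-read scaling, a minimum of 20 reads, and leaving out each time, background or vegetative library.

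Members named are up to 4 per peak group by highest CPM and up to 4 by rise over vegetative growth. In tests, every member past the threshold, up to 12 per direction, could be named, and in single pairs and authors' tables the 8 highest and 8 lowest. Members named outside this rule, such as mug128 and mug89 where they did not pass, were chosen after their values were seen. Members and gene lists were chosen with earlier results of these data known.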

Additional observations from a re-analysis of the deposited data

Results flagged for a closer look

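The difference between the red1 deletion and wild type changed between the phases of the course for 12 of 82 members, by the F test of strain and phase in edgeR's quasi-likelihood fit with Benjamini-Hochberg adjustment. The smallest p-values were those of the phospholipid flippase subunit gene mug89 (adjusted p = 0.00359), mug111 (adjusted p = 0.00437), the ubiquitin ligase gene mug30 (adjusted p = 0.00692) and mug129 (adjusted p = 0.0125). For mug89 the log2 difference was -1.35 ± 0.26 at 4 to 6 h and 1.83 ± 0.33 at 7 to 8 h, and for mug111 it was -1.95 ± 0.34 and 1.64 ± 0.41, while mug30 was lower in both phases.

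For the pir1 deletion the difference changed between phases for 25 of 82 members in the same test. The smallest p-values were those of meu15 (adjusted p = 0.00146), the acetate transporter gene mug86 (adjusted p = 0.00268), mug111 (adjusted p = 0.0035) and mug96 (adjusted p = 0.00364). At 1 to 3 h meu15 was higher by 4.74 ± 0.57 and mug86 by 3.28 ± 0.40, and at 4 to 6 h mug96 was lower by 2.12 ± 0.51.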

How the results depend on the processing

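The cause of the changes below was not tested. The stranded column turned the sign of 21 single-member results. For Red1 loss these were mug113 over the course (-0.51) and at 4 to 6 h (-2.05), mug62 at 1 to 3 h (-0.091) and meu27 at 4 to 6 h (-1.13). For Pir1 loss over the course they were mug35 (-0.28), mug64 (0.30), meu26 (0.32) and meu22 (1.42). At 1 to 3 h they were mug35 (-0.48), mug114 (-2.31), mug64 (0.40), meu26 (0.085), meu22 (3.77) and meu18 (2.35). At 4 to 6 h they were mug35 (-0.31), mug64 (0.25) and meu25 (-0.75), at 7 to 8 h meu26 (0.36) and meu25 (-0.68), and before induction meu26 (1.41). Against vegetative growth mug5 at 4 to 6 h became 0.18. For Red1 loss before induction meu1 ranged from -0.12 without the vegetative time to 3.91 without the starved time.

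In the stranded column the members higher over the course were 3 for Red1 and 34 for Pir1 loss. Red1 loss had 0 higher at 1 to 3 h, 0 higher at 4 to 6 h and 8 lower at 7 to 8 h, Pir1 loss before induction had 2 higher and 0 lower, and 47 rose after starvation. That column placed 2 members before induction and 11 at 7 to 8 h and left 2 without a place. DESeq2 gave 10 higher and 1 lower for Red1 and 16 higher and 2 lower for Pir1 before induction, and 5 higher for Pir1 at 7 to 8 h. Without a filter 1 was higher for Red1 at 1 to 3 h. In the column without strand tor2-ts6 had 26 higher and 2 lower, the SD variant 17 lower and the SA variant 0 lower.

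Leaving out 1 time, background or library at a time gave these ranges of higher and lower members. Against vegetative growth they were 25 to 36 and 2 to 2 after starvation, 63 to 67 and 2 to 3 at 1 to 3 h, 70 to 73 and 3 to 3 at 4 to 6 h, and 52 to 62 and 2 to 3 at 7 to 8 h. For Red1 loss they were 0 to 8 and 0 to 1 before induction, 0 to 3 and 0 to 4 at 1 to 3 h, 0 to 21 and 6 to 23 at 4 to 6 h, 0 to 31 and 0 to 6 at 7 to 8 h, and 4 to 12 and 2 to 6 over the course. For Pir1 loss they were 0 to 17 and 0 to 3 before induction, 31 to 57 and 3 to 13 at 1 to 3 h, 1 to 5 and 3 to 13 at 4 to 6 h, 0 to 6 and 0 to 4 at 7 to 8 h, and 8 to 24 and 7 to 10 over the course. In growing cells they were 2 to 3 and 0 to 0, and 0 to 3 and 0 to 0 in the tor2-ts6 strains. The tests of strain differences already pair libraries by time or background, and no further pairing by replicate number was made, since all groups but vegetative wild type have 1 library.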
